A study of Mus musculus with 24 samples.

Results

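The 35 genes described here encode the machinery of autophagy and of the lysosome. They were chosen by name and read from probe sets that the array's annotation gives to a single gene, with the probe set of the highest mean over all arrays standing for a gene that had several. A single-gene probe set was found for 34 of the 35, the exception being the cargo receptor Optn. Of these, 32 passed a filter on low values (at least 3 of the 24 arrays at a log2 signal of 5 or higher) and were tested, among 9504 genes tested in all. Ulk2, a kinase of the initiation step, stayed between 3.47 and 4.54 on every array. Atg10, a conjugating enzyme, ran between 4.24 and 5.40 and reached 5 on 1 array. The tested genes fell into 9 of initiation and nucleation, 11 of conjugation including the ATG8 proteins, 3 cargo receptors and 9 lysosomal genes.

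Macroautophagy begins when the ULK1 kinase complex and the BECN1–PIK3C3 lipid kinase complex start a membrane cup, to which ATG9A vesicles deliver lipid. Ubiquitin-like conjugation enzymes then attach ATG8 proteins, the LC3 and GABARAP families, to the membrane. Cargo receptors such as SQSTM1 (p62) bind ubiquitinated cargo and ATG8 proteins, and the closed vesicle fuses with the lysosome, where cathepsins digest its content. TFEB and TFE3 are transcription factors that bind promoters of lysosomal and autophagy genes. Huntingtin has been described both as a substrate of autophagy and as a scaffold that takes part in cargo selection.

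RNA of undifferentiated mouse embryonic stem cells of strain 129/Sv was hybridised to 24 one-colour Affymetrix arrays. The groups differed at Hdh, now Htt, the gene of huntingtin. They were 6 knock-out arrays (genotype given as null), 4 knock-in lines of 3 arrays each and 6 control arrays with 7 CAG repeats on both alleles. Each knock-in line kept 7 repeats on 1 allele and carried a longer tract on the other, of 16 repeats for Q20, 45 for Q50 with 43 on its replicate 3, 85 for Q91 and 111 for Q111. A free-text field of the labels contradicts the titles, calling control cells devoid of Hdh and knock-out cells the reverse, and the titles and genotypes were followed. Replicates may be separate clones or cultures of the same cells, which no label settles, and p-values therefore cover only the array-to-array spread. Values are the authors' log2 signals, a change is a difference of group means on that scale, and a gene was called where its adjusted p in limma's moderated test was under 0.05 over all tested probe sets.

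Htt averaged 7.21 ± 0.27 on knock-out arrays and 8.01 ± 0.29 on control arrays (SD, n = 6 each), a change of -0.80 with a limma adjusted p of 0.00195. The same probe set changed by -0.47 in Q20, -0.61 in Q50, -1.05 in Q91 and -0.79 in Q111, with limma adjusted p of 0.0777, 0.0544, 0.000565 and 0.00445. Its means of 6.96 in Q91 and 7.22 in Q111 lay below and beside the knock-out mean, within the spread of the arrays, and this probe set therefore gives no check of the knock-out against these lines. Stem cell markers were present in every group, and of 10 tested 2 were called higher in the knock-out, while 6 were called lower in Q20, 2 in Q50, 7 in Q91 and 6 in Q111. Of 4 tested genes of the trophoblast list (Eomes, Krt8, Krt18 and Tfap2c) 3 were called higher in Q20, Q91 and Q111 and 2 in Q50, while Cdx2, Elf5, Gata3 and Hand1 stayed below 5 in every group. Tfap2c, Krt18 and Krt8, with means of 11.10, 10.06 and 9.72 over all arrays, contributed most to the summed level of this list. That level (log2 of the summed signal) was 11.23 to 11.86 on knock-out arrays. It was 12.34 to 14.56 on Q20 arrays, between 11.56 and 13.70 on Q50 arrays, 13.44 to 15.52 on Q91 arrays and 14.01 to 14.19 on Q111 arrays, against 11.42 to 11.91 on control arrays. Of 9 tested fibroblast markers 5 were called higher in Q20, Q91 and Q111 and 2 in Q50, and 1 was called lower in the knock-out. Col3a1, Col5a2, Dcn, Lum, Postn and Pdgfra were below 5 at the level of every group, although Col5a2 reached 5 on at least 3 single arrays and was among those tested. The summed level of all listed fibroblast markers was 13.26 to 13.97 on knock-out arrays. It was 13.94 to 14.93 on Q20, 13.02 to 13.84 on Q50, 14.05 to 15.43 on Q91 and 14.29 to 14.41 on Q111 arrays, against 13.63 to 14.06 on control arrays. Of 6 tested primitive endoderm markers 3 were called higher in Q20, Q91 and Q111 and 1 in Q50, and 1 was lower in the knock-out, with Gata4, Gata6 and Sox17 below 5 in every group. Of 5 tested neural markers 1 fell in the knock-out, 2 rose and 1 fell in Q20 and in Q91, 1 rose in Q50, and 1 rose and 1 fell in Q111. Of all tested genes 16.4% were called in the knock-out, 26.7% in Q20, 7.5% in Q50, 24.6% in Q91 and 27.4% in Q111. The part of these markers in the results was not tested.

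The median of all tested genes on a chromosome, relative to the control mean, also moved between arrays. It spanned 0.82 in log2 over the 24 arrays on chromosome 11, 0.78 on chromosome 14, 0.70 on chromosome 1 and 0.65 on chromosome 8, and 0.20 to 0.39 on the other 16 chromosomes compared. These 4 chromosomes hold 15 of the 32 tested members. The chromosome 11 median was 0.39 to 0.49 on all Q20 arrays, 0.42 to 0.48 on all Q111 arrays and 0.47 on Q91 replicate 1. The chromosome 1 median lay between -0.49 and -0.32 on all Q20 arrays and on replicates 2 and 3 of Q50, 2 and 3 of Q91 and 1 and 2 of Q111. That of chromosome 8 lay between -0.45 and -0.32 on all Q91 arrays and on replicate 3 of Q20, Q50 and Q111, and that of chromosome 14 was 0.32 to 0.54 on all knock-out arrays. Among controls, replicate 4 had the lowest median on all 4 chromosomes, at -0.20 on 1, -0.30 on 8, -0.10 on 11 and -0.24 on 14. Calls on these chromosomes are therefore given with their values after every array was centred on its chromosome medians. Chromosome copy number was not measured here.

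**Figure D1:**
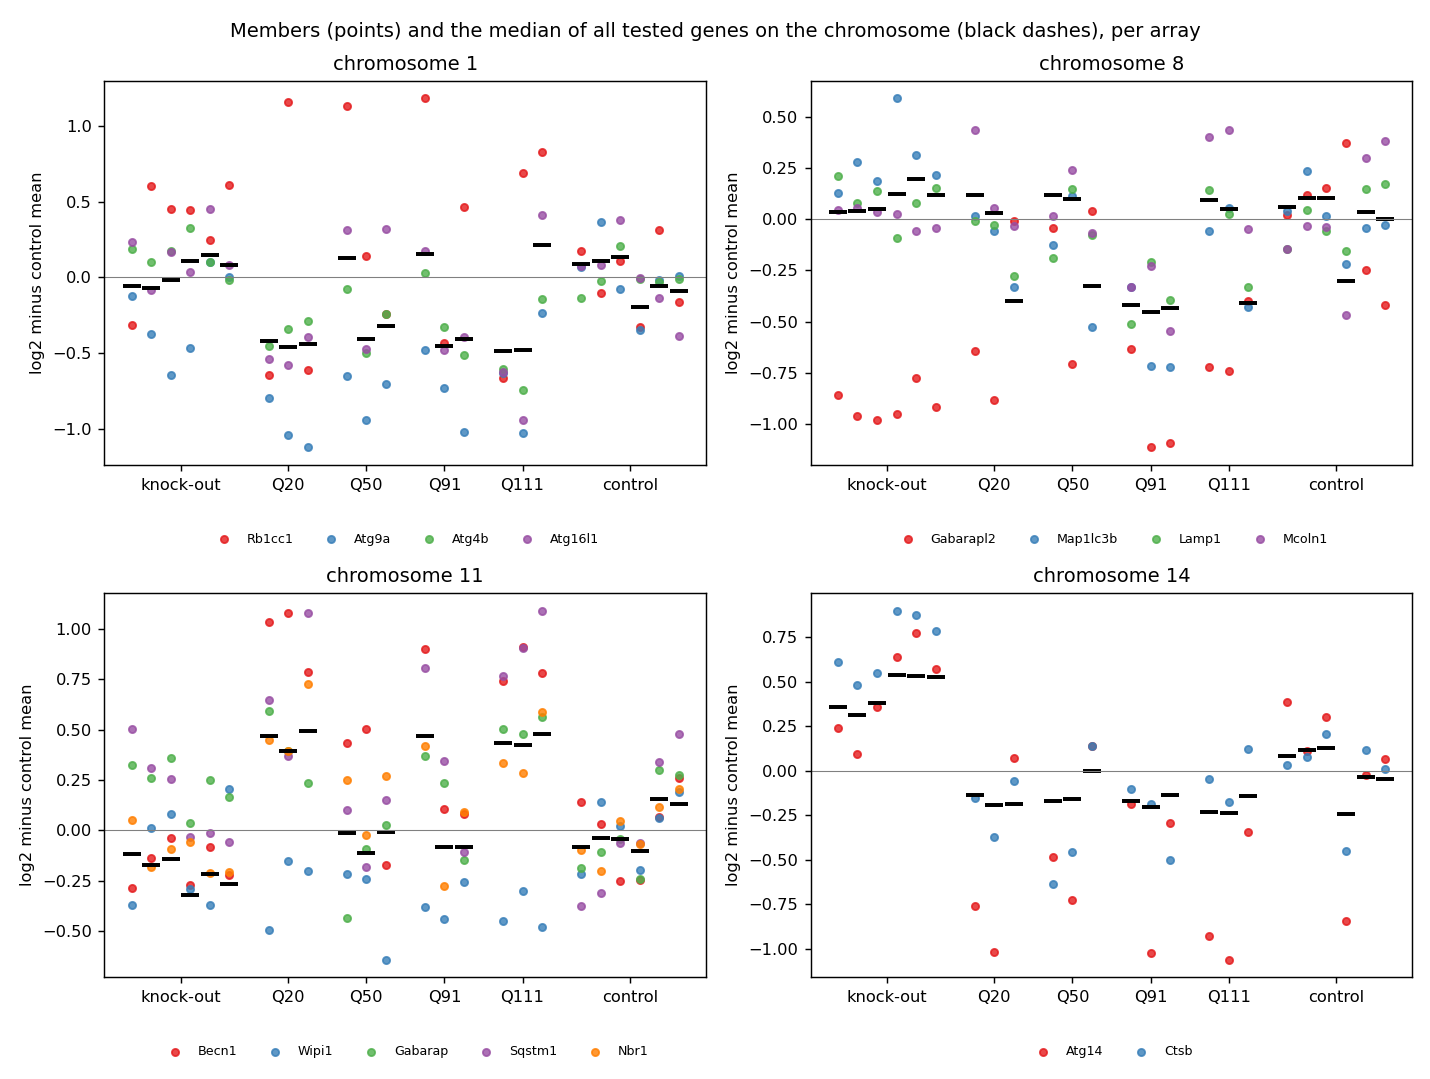
Log2 value minus the control mean on the vertical axis for each of the 24 arrays, grouped along the horizontal axis; coloured points are members on chromosomes 1, 8, 11 and 14, and black dashes the median of all tested genes on that chromosome. The chromosome 14 dashes sit at 0.32 to 0.54 on the knock-out arrays, and those of chromosome 11 at 0.39 to 0.49 on Q20 and 0.42 to 0.48 on Q111.

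Against control, autophagy and lysosome genes moved in both directions in Q20, Q91 and Q111, and few were called in the knock-out and Q50. The knock-out had 3 of 32 called (9.38%), 1 higher and 2 lower, where 16.4% of all tested genes were called, 7.55% higher and 8.81% lower. Q20 had 10 (31.2%), 6 higher and 4 lower, against 26.7% of all genes, 16.3% higher and 10.4% lower. Q50 had 2 (6.25%), both lower, against 7.5%, 5.08% higher and 2.42% lower. Q91 had 8 (25%), 3 higher and 5 lower, against 24.6%, 13.3% higher and 11.3% lower. Q111 had 13 (40.6%), 6 higher and 7 lower, against 27.4%, 16.4% higher and 11.1% lower. The shares lay below the background in the knock-out, near it in Q20, Q50 and Q91, and above it in Q111, where after chromosome centring 8 (25%) were called against 26.3% of all genes. The differences from the background were not tested. Each line's count includes Atg9a, which passed the filter through the groups in which it was higher. The median change of the members was 0.02, -0.08, -0.02, -0.11 and -0.04 in the knock-out, Q20, Q50, Q91 and Q111, and that of all genes was -0.02, 0.01, 0.03, -0.01 and -0.01.

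In all, 19 members were called at least once and 13 in none of the 5 comparisons, and 0 were called in opposite directions. The 5 comparisons share the 6 control arrays. The Q20 count was 6 without Q20 replicate 1, the Q50 count was 4 without Q50 replicate 1 and 0 without Q50 replicate 2, and the Q111 count was 6 without Q111 replicate 1 and 6 without Q111 replicate 2. With control replicates 4 to 6 as the only controls, the counts were 4 in Q20, 1 in Q50, 3 in Q91 and 4 in Q111. Centred on chromosome medians they were 4 in the knock-out, 8 in Q20, 2 in Q50, 5 in Q91 and 8 in Q111, where 14.3%, 24.7%, 8.43%, 25% and 26.3% of all genes were called.

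**Figure D2:**
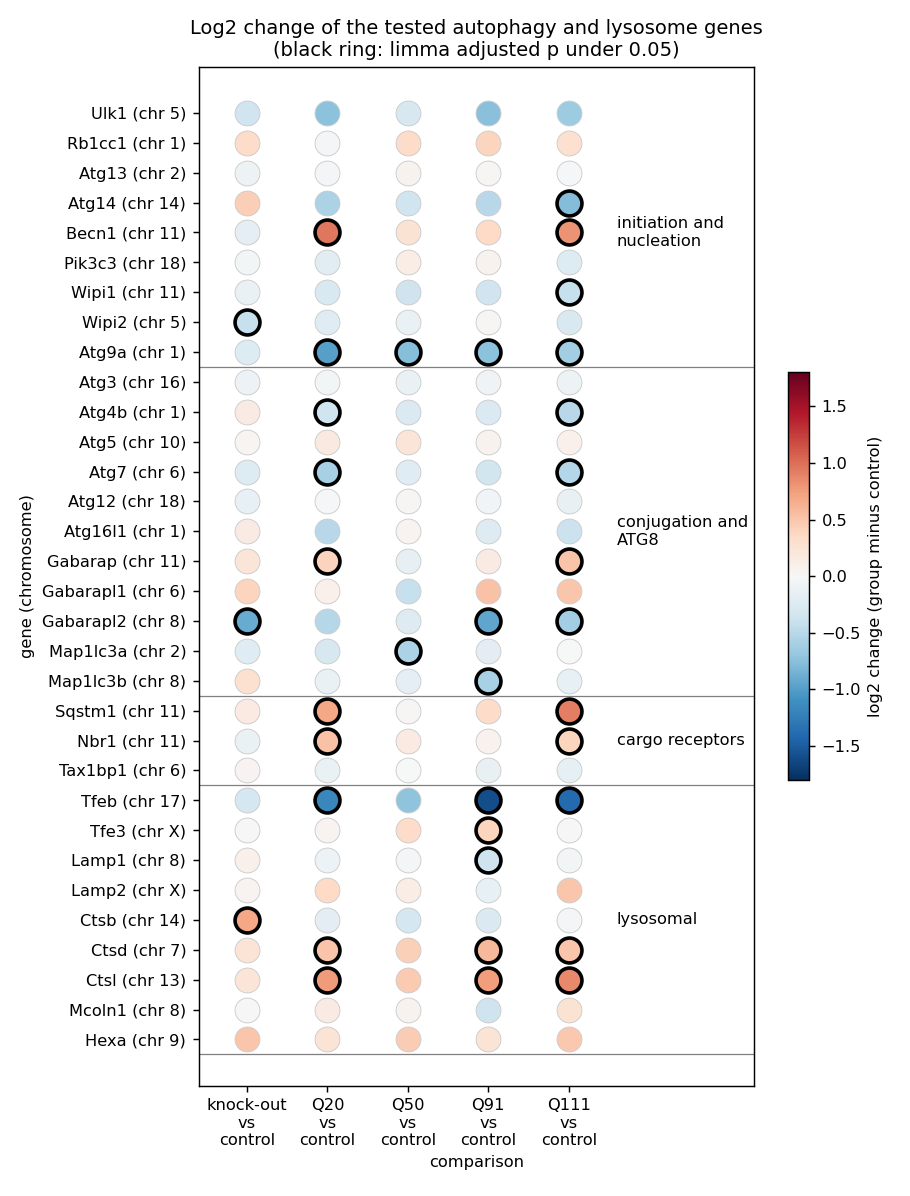
Log2 change against control (colour, blue lower and red higher) of the 32 tested members, one per line and grouped by role, in the 5 comparisons along the horizontal axis; black rings mark limma adjusted p under 0.05. Rings number 3 in the knock-out, 10 in Q20, 2 in Q50, 8 in Q91 and 13 in Q111.

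Among the 9 genes of initiation and nucleation, Becn1 rose in Q20 and Q111, and Wipi2 fell in the knock-out. Atg9a was called lower in all 4 lines, at a signal near the background. Atg14 and Wipi1 fell in Q111. The kinase-complex genes Ulk1, Rb1cc1 and Atg13 and the lipid kinase Pik3c3 were called in no comparison with control. In the knock-out 0 rose and 1 fell, in Q20 1 and 1, in Q50 0 and 1, in Q91 0 and 1, and in Q111 1 and 3, with Atg9a among those that fell in each line. The shares called were 11.1%, 22.2%, 11.1%, 11.1% and 44.4%, against 16.4%, 26.7%, 7.5%, 24.6% and 27.4% of all tested genes.

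Becn1, the beclin 1 scaffold of the PIK3C3 complex, lies on chromosome 11. It stood at 12.31, 12.36 and 12.06 in Q20 and at 12.02, 12.19 and 12.06 in Q111, against 11.02 to 11.53 (median 11.32) on control arrays. Every Q20 and Q111 array lay above every control array. The change was 0.97 ± 0.17 (SE) in Q20 (limma adjusted p = 0.000372) and 0.81 ± 0.17 in Q111 (limma adjusted p = 0.00135). Centred on chromosome medians it was 0.51 (limma adjusted p = 0.0113) in Q20 and 0.37 (limma adjusted p = 0.057) in Q111. In Q91, replicate 1, the array with the high chromosome 11 median, stood at 12.18, and replicates 2 and 3 at 11.38 and 11.36. A second Becn1 probe set also rose, by 0.93 in Q20 and 0.83 in Q111, while the remaining one was not called.

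Atg9a, the membrane protein of the lipid-delivering vesicles, lies on chromosome 1 and gave a low signal. It reached 5 on 13 arrays, 11 of them knock-out or control ones, so that it passed the filter through the groups in which it was higher. It stood at 4.72, 4.47 and 4.39 in Q20, at 4.86, 4.57 and 4.81 in Q50, at 5.04, 4.78 and 4.49 in Q91 and at 4.88, 4.49 and 5.28 in Q111, against 5.16 to 5.88 (median 5.51) on control arrays. Only Q111 replicate 3 overlapped the controls. The change was -0.99 in Q20, -0.77 in Q50, -0.74 in Q91 and -0.63 in Q111, with limma adjusted p of 0.000621, 0.014, 0.00569 and 0.0145. After chromosome centring the changes were -0.56, -0.56, -0.53 and -0.41, all still called. The line means lay below 5, a level not told from background, so these sizes are not exact. Since Atg9a was tested only because of the groups in which it was higher, its calls are not independent of the filter.

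Wipi2, which reads the lipid made by PIK3C3 and recruits the conjugation enzymes, fell in the knock-out. Its values there ran from 8.46 to 8.88 (median 8.74), against 8.97 to 9.30 (median 9.13) in controls, without overlap. The change was -0.41 ± 0.10 (SE, limma adjusted p = 0.0102). A second tested Wipi2 probe set differed by 0.01 in the knock-out and was not called. With the mean of all 3 Wipi2 probe sets, of which the dimmest averaged 3.99 and was not tested by itself, the change was -0.13 (limma adjusted p = 0.0893).

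Wipi1, a relative of Wipi2 on chromosome 11, stood at 5.76, 5.91 and 5.73 in Q111, against 5.99 to 6.40 (median 6.25) in controls, and all 3 Q111 arrays were the lower ones. Its change of -0.41 (limma adjusted p = 0.0347) was kept in 7 of 19 alternative settings. It became -0.85 (limma adjusted p = 0.000674) after chromosome centring, the chromosome 11 median being 0.42 to 0.48 on the Q111 arrays. The chosen Wipi1 probe set was dim, with a mean of 6.00 over all arrays. Its other probe sets averaged 2.36 to 4.51, were not tested, and differed by -0.06 to 0.26 in Q111. Atg14, the subunit that directs the PIK3C3 complex to autophagy, lies on chromosome 14 and stood at 7.74, 7.61 and 8.33 in Q111, against 7.83 to 9.05 (median 8.76) in controls, and the groups overlapped through control replicate 4. Its change was -0.78 (limma adjusted p = 0.0437), and the call was kept in 9 of 20 settings. After chromosome centring it was -0.61 and not called (limma adjusted p = 0.0685).

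Ulk1, the catalytic subunit of the initiating kinase, gave the largest changes of any member never called. It differed by -0.73 in Q20, -0.76 in Q91 and -0.66 in Q111, with limma adjusted p of 0.0633, 0.0614 and 0.0945. The arrays of 1 line differed widely, from 9.42 to 10.97 within Q111. Rb1cc1, the FIP200 scaffold of the same complex, ranged from 6.95 to 8.76 within Q20 and was not called.

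Among the 11 genes of conjugation, Atg7 fell in Q20 and Q111, and the ATG8 genes moved apart. Gabarapl2 fell in the knock-out, Q91 and Q111, Map1lc3b fell in Q91, Map1lc3a fell in Q50, and Gabarap rose in Q20 and Q111. The protease gene Atg4b fell in Q20 and Q111. Atg3, Atg5, Atg12 and Atg16l1, which encode the other tested members of the conjugation systems, and Gabarapl1 were called in no comparison with control. A second, dimmer Gabarapl1 probe set was called higher in the knock-out, Q91 and Q111, by 0.44, 0.43 and 0.49 (limma adjusted p = 0.0155, 0.0356 and 0.0154), where the chosen one differed by 0.40, 0.52 and 0.50 (limma adjusted p = 0.146, 0.0951 and 0.0992). In the knock-out 0 rose and 1 fell, in Q20 1 and 2, in Q50 0 and 1, in Q91 0 and 2, and in Q111 1 and 3. These are shares of 9.09%, 27.3%, 9.09%, 18.2% and 36.4%, against 16.4%, 26.7%, 7.5%, 24.6% and 27.4% of all tested genes.

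Atg7 encodes the E1-like enzyme that activates ATG12 and the ATG8 proteins, and lies on chromosome 6. It stood at 7.47, 7.57 and 7.40 in Q20 and at 7.54, 7.49 and 7.63 in Q111, against 7.81 to 8.49 (median 8.06) in controls, without overlap. The change was -0.60 ± 0.15 (SE) in Q20 (limma adjusted p = 0.00516) and -0.53 ± 0.15 in Q111 (limma adjusted p = 0.0113). After chromosome centring it was -0.62 and -0.54. With control replicates 4 to 6 as the only controls neither change was called (limma adjusted p = 0.0752 in Q20 and 0.135 in Q111), and without Q111 replicate 2 the Q111 change had a limma adjusted p of 0.0529.

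Gabarapl2, an ATG8 gene on chromosome 8 whose protein GATE-16 acts late in autophagosome formation, was the member furthest below control in the knock-out. Its values ran from 10.84 to 11.05 (median 10.89) on knock-out arrays, against 11.40 to 12.19 (median 11.89) on control arrays. All 6 knock-out arrays lay below all 6 control arrays. The change was -0.91 ± 0.16 (SE), a knock-out signal 0.53 times that of controls (limma adjusted p = 0.000732), and -1.01 (limma adjusted p = 0.00551) after chromosome centring. With replicates 4 to 6 of both groups alone it was -0.78 (limma adjusted p = 0.0765).

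Gabarapl2 also stood at 11.19, 10.71 and 10.73 in Q91 and at 11.10, 11.08 and 11.42 in Q111, where replicate 3 overlapped the lowest control. The changes were -0.95 in Q91 and -0.62 in Q111 (limma adjusted p = 0.00134 and 0.0211). After chromosome centring they were -0.53 and -0.54 and were not called (limma adjusted p = 0.19 and 0.169).

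Map1lc3b, the LC3B gene on chromosome 8, stood at 12.58, 12.19 and 12.18 in Q91, against 12.69 to 13.14 (median 12.90) in controls. The Q91 arrays were all lower, by a mean of -0.59 (limma adjusted p = 0.00567), and 2 further Map1lc3b probe sets fell as well, by 0.57 and 0.64 on the log2 scale. The same 2 probe sets rose in the knock-out, by 0.59 and 0.65 (limma adjusted p = 0.0114 and 0.012), where the chosen one differed by 0.29 (limma adjusted p = 0.11). After chromosome centring the Q91 change was -0.17 (limma adjusted p = 0.252). Map1lc3a, the LC3A gene on chromosome 2, stood at 10.81, 10.67 and 10.61 in Q50, against 10.92 to 11.58 (median 11.22) in controls. Its change of -0.57 (limma adjusted p = 0.029) was kept in 11 of 20 settings, and not without Q50 replicate 2 or 3 or control replicate 5 or 6.

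Gabarap on chromosome 11 stood at 11.63, 11.44 and 11.28 in Q20 and at 11.54, 11.52 and 11.60 in Q111, against 10.80 to 11.34 (median 10.97) in controls. The Q111 arrays lay above all controls, and Q20 replicate 3 overlapped them. The changes of 0.41 and 0.52 (limma adjusted p = 0.0353 and 0.00921) became -0.05 and 0.07 after chromosome centring. Atg4b, a protease that trims ATG8 proteins, lies on chromosome 1 and stood at 8.40, 8.52 and 8.57 in Q20 and at 8.25, 8.11 and 8.72 in Q111, against 8.72 to 9.06 (median 8.84) in controls. All these arrays were at or below the lowest control. The changes of -0.36 and -0.50 (limma adjusted p = 0.0481 and 0.00817) became 0.07 and -0.27 after chromosome centring, neither called. A second tested Atg4b probe set differed by -0.02 in Q20 and -0.12 in Q111, was called in neither, and rose by 0.45 in the knock-out (limma adjusted p = 0.0128), where the chosen one differed by 0.15 (limma adjusted p = 0.408).

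Of the 3 tested cargo receptors, Sqstm1 and Nbr1 rose in Q20 and Q111, and Tax1bp1 was called in no comparison. None was called in the knock-out, Q50 or Q91, and in limma's test 0 had an unadjusted p under 0.05 in any of these 3. Both genes that rose lie on chromosome 11, whose median was high on the same arrays. Of all tested genes 26.7% were called in Q20 and 27.4% in Q111.

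Sqstm1, which encodes p62, stood at 11.06, 10.78 and 11.49 in Q20 and at 11.18, 11.31 and 11.50 in Q111, against 10.03 to 10.89 (median 10.35) in controls. The Q111 arrays lay above all controls, and Q20 replicate 2 fell among them. The change was 0.70 ± 0.21 (SE) in Q20 (limma adjusted p = 0.0175) and 0.92 ± 0.21 in Q111 (limma adjusted p = 0.00255). After chromosome centring it was 0.24 (limma adjusted p = 0.276) and 0.48 (limma adjusted p = 0.0261). In Q91, Sqstm1 was 11.22 on replicate 1, 10.75 on replicate 2 and 10.30 on replicate 3.

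Nbr1, a receptor related to p62 in its domain make-up, stood at 11.90, 11.84 and 12.18 in Q20 and at 11.78, 11.73 and 12.04 in Q111, against 11.25 to 11.65 (median 11.44) in controls. Neither line overlapped the controls. The changes of 0.52 and 0.40 (limma adjusted p = 0.006 and 0.0275) became 0.07 and -0.04 after chromosome centring. Tax1bp1, a receptor on chromosome 6, kept within 10.63 to 11.16 on all 24 arrays, and its changes lay between -0.15 and 0.05.

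Among the 9 lysosomal genes, the transcription factor gene Tfeb fell in Q20, Q91 and Q111, and the cathepsin genes Ctsl and Ctsd rose in the same 3 lines. Ctsb rose in the knock-out, and in Q91 Tfe3 rose and Lamp1 fell. Lamp2, the calcium channel gene Mcoln1 and the hexosaminidase gene Hexa were called in no comparison. In the knock-out 1 rose and 0 fell, in Q20 2 and 1, in Q50 0 and 0 (4 at an unadjusted p under 0.05 in limma's test), in Q91 3 and 2, and in Q111 2 and 1. Called shares were thus 11.1%, 33.3%, 0%, 55.6% and 33.3%, against 16.4%, 26.7%, 7.5%, 24.6% and 27.4% of all tested genes.

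Tfeb encodes a transcription factor that drives lysosomal biogenesis and lies on chromosome 17. It stood at 7.37, 6.93 and 7.90 in Q20, at 7.03, 6.90 and 6.97 in Q91 and at 7.45, 6.61 and 7.44 in Q111, against 8.25 to 8.96 (median 8.53) in controls. All 9 arrays of these lines lay below all control arrays. The change was -1.17 ± 0.26 (SE) in Q20, -1.60 ± 0.26 in Q91 and -1.40 ± 0.26 in Q111, with limma adjusted p of 0.0023, 0.000153 and 0.000455. The lines thus held 0.44, 0.33 and 0.38 times the control signal, the largest changes of any member in Q20, Q91 and Q111. The calls were kept in each of 20 alternative settings, with changes between -1.70 and -0.93, and after chromosome centring the changes were -1.16, -1.60 and -1.36.

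In Q50, Tfeb stood at 7.65, 7.36 and 8.54, with replicate 3 among the controls, and the change of -0.72 was not called (limma adjusted p = 0.0837). On knock-out arrays it ran from 7.70 to 8.64 (median 8.31), overlapping the controls, and the change was -0.31 (limma adjusted p = 0.352). Knock-out arrays exceeded the mean of the 4 lines by 0.91 (limma adjusted p = 0.000326).

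Ctsl encodes cathepsin L, a lysosomal cysteine protease, and lies on chromosome 13. It stood at 12.95, 12.82 and 12.49 in Q20, at 12.51, 13.15 and 12.54 in Q91 and at 12.92, 12.74 and 12.89 in Q111, against 11.73 to 12.27 (median 11.98) in controls. All 9 arrays lay above all control arrays. The change was 0.77, 0.75 and 0.87, each ± 0.15 (SE), with limma adjusted p of 0.0011, 0.00136 and 0.000337, and these calls too were kept in each of 20 settings. In Q50 the change was 0.47 (limma adjusted p = 0.0631) and in the knock-out 0.23 (limma adjusted p = 0.234), and knock-out arrays were below the mean of the lines by a change of -0.48 (limma adjusted p = 0.001).

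Ctsd encodes cathepsin D, a lysosomal aspartic protease, and lies on chromosome 7. It stood at 11.28, 11.04 and 11.28 in Q20, at 11.05, 11.65 and 11.13 in Q91 and at 11.12, 11.22 and 11.23 in Q111, against 10.32 to 11.09 (median 10.62) in controls. The Q111 arrays lay above all controls, and Q20 replicate 2 and Q91 replicate 1 lay below control replicate 6, the highest control. The change was 0.51, 0.59 and 0.50, each ± 0.16 (SE), with limma adjusted p of 0.0201, 0.00966 and 0.021. With only the compared groups in the fit none of the 3 was called (limma adjusted p = 0.058, 0.072 and 0.0567), nor with control replicates 4 to 6 as the only controls (limma adjusted p = 0.173, 0.109 and 0.182). Leaving out Q20 replicate 1 or 3, Q91 replicate 2 or any Q111 replicate also ended the call in that line (limma adjusted p between 0.0505 and 0.116).

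**Figure D3:**
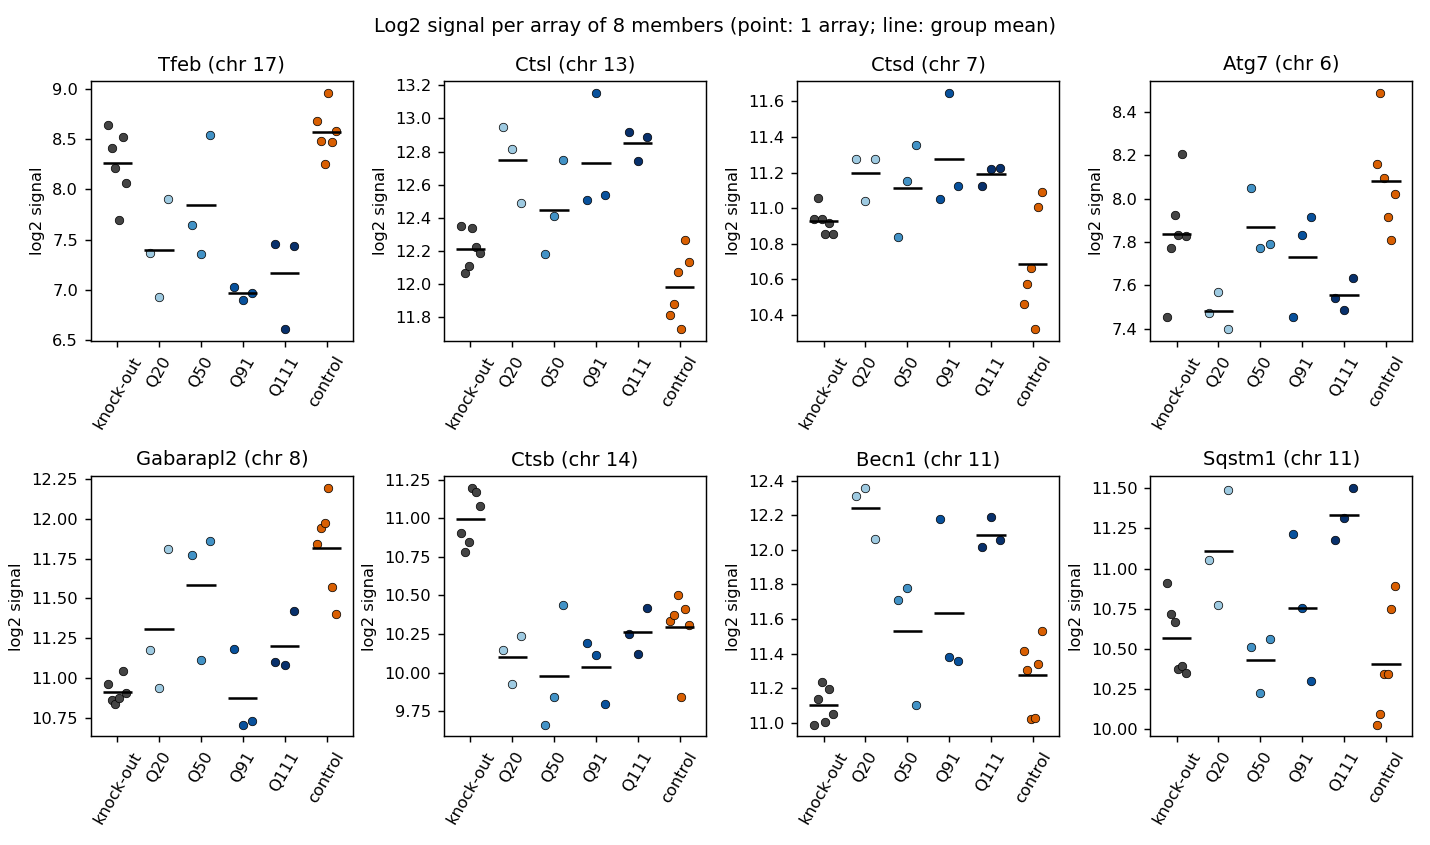
Log2 signal (vertical axis) of 8 members on each array, with the knock-out, the 4 lines and control along the horizontal axis; points are arrays and lines group means, and each panel has its own scale that does not start at 0. Tfeb is at 7.90 or below on all Q20, Q91 and Q111 arrays and at 8.25 or above on control arrays, and Ctsb is at 10.78 or above on all knock-out arrays and at 10.50 or below on control arrays.

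Ctsb encodes cathepsin B and lies on chromosome 14. It ran from 10.78 to 11.20 (median 10.99) on knock-out arrays, against 9.84 to 10.50 (median 10.35) on control arrays. The groups did not overlap. The change was 0.70 ± 0.13 (SE, limma adjusted p = 0.00126), a knock-out signal 1.62 times that of controls, and a second Ctsb probe set rose by 0.57. In Q91 that second probe set was called lower (-0.41, limma adjusted p = 0.0375), and the chosen one was not (-0.26, limma adjusted p = 0.265). After chromosome centring the change was 0.25 (limma adjusted p = 0.0977), the chromosome's median being 0.32 to 0.54 on the same arrays.

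Lamp1, an abundant glycoprotein of the lysosomal membrane, lies on chromosome 8 and stood at 12.63, 12.93 and 12.75 in Q91, against 12.99 to 13.31 (median 13.14) in controls. Its change of -0.37 (limma adjusted p = 0.0239) became 0.05 after chromosome centring. Tfe3, a relative of Tfeb on the X chromosome, stood at 8.96, 9.23 and 9.19 in Q91, against 8.35 to 8.89 (median 8.79) in controls. The Q91 arrays were all higher, by a mean of 0.40 (limma adjusted p = 0.049), and the call was kept in 4 of 20 settings. For Lamp2, a second lysosomal membrane glycoprotein, the change of the chosen probe set was 0.36 in Q20 and 0.51 in Q111, neither called, while 2 dimmer probe sets were called higher in both lines.

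The sequence that TFEB and TFE3 are known to bind is an E-box with the core CACGTG. In RefSeq promoters (250 bases before to 50 after the start, build GRCm38.p6), this palindrome was searched as exact letters, so that both strands are covered. It was found for 8.09% of 27025 genes and for 8 of the 28 members with a promoter in the table, namely Atg3, Atg5, Atg7, Atg14, Ctsd, Ctsl, Lamp1 and Mcoln1. The longer palindrome TCACGTGA, which contains the first, was found for 1.12% of all genes and for Atg3, Ctsd and Mcoln1. A match describes letters only, and binding was not measured. The promoters of the 5 called members with the core are shown with it in capitals, since they belong to members that rose (Ctsd, Ctsl) and fell (Atg7, Lamp1, Atg14). The falls of Lamp1 in Q91 and of Atg14 in Q111 were not called after chromosome centring.
Ctsd (chr7:142387778-142388077, minus strand): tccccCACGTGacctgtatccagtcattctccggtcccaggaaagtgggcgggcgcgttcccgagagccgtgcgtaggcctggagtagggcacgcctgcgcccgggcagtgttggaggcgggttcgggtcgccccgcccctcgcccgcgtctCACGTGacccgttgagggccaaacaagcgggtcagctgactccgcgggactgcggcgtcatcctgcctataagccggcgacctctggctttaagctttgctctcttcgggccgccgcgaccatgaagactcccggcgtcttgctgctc
Ctsl (chr13:64370471-64370770, minus strand): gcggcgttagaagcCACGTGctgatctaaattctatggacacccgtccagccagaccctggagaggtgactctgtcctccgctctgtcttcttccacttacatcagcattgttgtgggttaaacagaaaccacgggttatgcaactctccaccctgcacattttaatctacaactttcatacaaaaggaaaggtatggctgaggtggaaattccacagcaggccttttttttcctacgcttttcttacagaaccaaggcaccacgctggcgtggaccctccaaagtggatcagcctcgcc
Atg7 (chr6:114670846-114671145, plus strand): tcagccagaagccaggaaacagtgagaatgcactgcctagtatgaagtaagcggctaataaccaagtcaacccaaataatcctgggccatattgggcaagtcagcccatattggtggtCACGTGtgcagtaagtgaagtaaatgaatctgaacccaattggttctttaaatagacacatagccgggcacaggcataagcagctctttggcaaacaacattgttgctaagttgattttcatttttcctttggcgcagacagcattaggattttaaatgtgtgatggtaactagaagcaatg
Lamp1 (chr8:13158911-13159210, plus strand): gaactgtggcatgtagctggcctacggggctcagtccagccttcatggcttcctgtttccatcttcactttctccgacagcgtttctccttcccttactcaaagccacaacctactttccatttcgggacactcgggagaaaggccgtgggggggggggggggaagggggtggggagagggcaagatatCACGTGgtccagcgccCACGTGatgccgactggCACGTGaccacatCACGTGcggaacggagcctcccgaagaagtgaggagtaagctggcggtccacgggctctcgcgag
Atg14 (chr14:47568385-47568684, minus strand): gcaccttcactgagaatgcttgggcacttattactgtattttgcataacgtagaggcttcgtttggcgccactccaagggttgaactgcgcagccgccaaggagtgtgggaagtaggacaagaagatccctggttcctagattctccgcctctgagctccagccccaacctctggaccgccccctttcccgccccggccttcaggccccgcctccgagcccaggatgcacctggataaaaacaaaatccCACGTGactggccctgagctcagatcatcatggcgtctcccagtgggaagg
The core begins 245 and 98 bases before the start in Ctsd, 236 in Ctsl, 132 in Atg7, 61, 45, 28 and 15 in Lamp1, and 1 in Atg14. These starts are the annotated ones. Whether the cells use them, and so whether the sequences serve as promoters there, was not measured. Of the 8 members with the core, Atg3, Atg5 and Mcoln1 were called in no comparison with control.

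Of the 36 called changes of members against control, 22 were on chromosomes 1, 8, 11 and 14 and 14 on other chromosomes. They came from 75 and 85 tests over the 5 comparisons. Of all tested genes on these 4 chromosomes, 20.9% were called in the knock-out, 38% in Q20, 5.13% in Q50, 28.1% in Q91 and 36% in Q111. Of those on other chromosomes, 15%, 23.3%, 8.22%, 23.6% and 24.9% were. The matching shares of members were 13.3%, 40%, 6.67%, 26.7% and 60% on these 4 chromosomes. On other chromosomes they were 5.88%, 23.5%, 5.88%, 23.5% and 23.5%. After chromosome centring 8 of the 22 were still called and 14 were not, and 4 uncalled ones on these chromosomes were called: Wipi1 in Q20 and Q91, and Gabarap and Sqstm1 in the knock-out. The 8 kept were Atg9a in all 4 lines, Becn1 in Q20, Wipi1 and Sqstm1 in Q111 and Gabarapl2 in the knock-out. Atg9a had passed the filter through the groups in which it was higher, so its calls are not independent of the filter. On other chromosomes 13 of the 14 were still called, the exception being Tfe3 in Q91, and Pik3c3 was newly called in Q20 and Q111. The calls kept on other chromosomes were those of Tfeb, Ctsl and Ctsd in Q20, Q91 and Q111, Atg7 in Q20 and Q111, Map1lc3a in Q50 and Wipi2 in the knock-out. Centring also removes any true change shared by most genes of a chromosome.

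**Figure D4:**
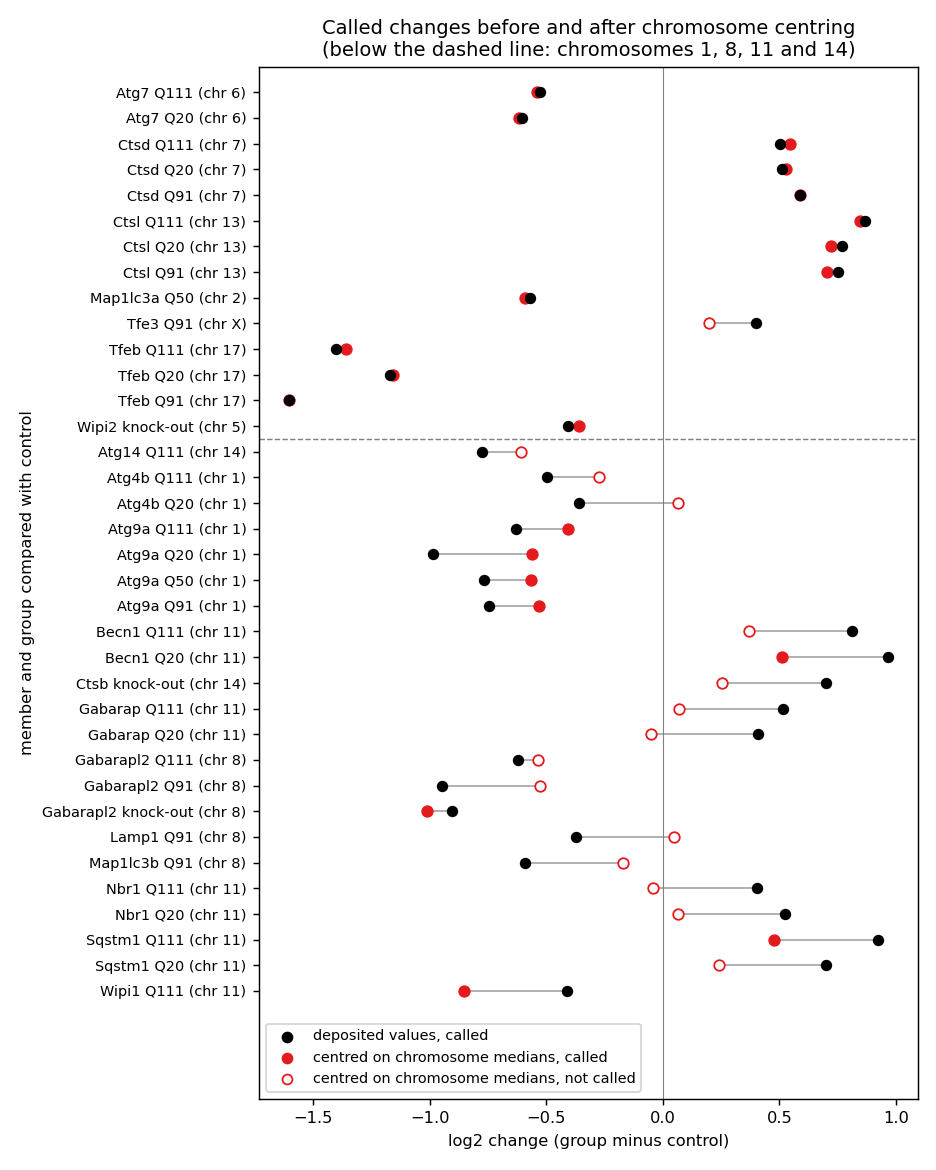
Log2 change against control (horizontal axis) of the called member changes, one per line with the group and chromosome named; black points are the deposited values, red points the values after centring each array on its chromosome medians, filled where limma's adjusted p stayed under 0.05. Above the dashed line Tfeb, Ctsl and Ctsd change little, and below it Gabarap and Atg4b in Q20, Lamp1 in Q91 and Nbr1 in Q111 cross 0.

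The knock-out was also compared with the equally weighted mean of the 4 lines, where 12 of 32 members were called (37.5%), 8 higher and 4 lower, against 49.1% of all tested genes, 21.2% higher and 27.9% lower. Higher in the knock-out were Atg14 by 1.00, Tfeb by 0.91, Ctsb by 0.90, Map1lc3b by 0.54, Atg9a by 0.53, Atg4b by 0.50, Atg16l1 by 0.42 and Lamp1 by 0.24. Becn1 fell by 0.77, Ctsl by 0.48, Nbr1 by 0.41 and Wipi2 by 0.26 on the log2 scale. Of the 12, 9 lie on chromosomes 1, 8, 11 and 14. After chromosome centring 5 of these 9 lost their call: Atg14 at 0.41, Atg9a at 0.23, Atg16l1 at 0.11, Lamp1 at -0.02 and Nbr1 at 0.05 (limma adjusted p = 0.0571, 0.0686, 0.394, 0.884 and 0.59). Wipi2, on another chromosome, was not called either, at -0.20 (limma adjusted p = 0.0674). Newly called were Wipi1, Gabarap, Gabarapl2 and Mcoln1 on these 4 chromosomes, and Atg13 and Tax1bp1 on others. Thus 12 of 32 members were called after centring, 7 higher and 5 lower, against 46.5% of all tested genes. Tfeb, Ctsl, Becn1, Ctsb, Map1lc3b and Atg4b kept their calls in each of 27 alternative settings, Becn1 at -0.31, Ctsb at 0.31, Map1lc3b at 0.29 and Atg4b at 0.19 after chromosome centring. Atg16l1, which encodes part of the complex that sets where ATG8 proteins are attached, was called here and in no comparison with control. It ran from 8.75 to 9.28 (median 8.95) on knock-out arrays, against 8.29, 8.25 and 8.44 in Q20, 9.14, 8.35 and 9.15 in Q50, 8.35 and 8.44 on Q91 replicates 2 and 3, with replicate 1 higher, and 8.20, 7.89 and 9.24 in Q111. Its line arrays fell into higher and lower ones within Q50, Q91 and Q111, and the call (limma adjusted p = 0.0465) was kept in 11 of 27 settings.

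Within the lines, 0 of 32 members were called for a slope on repeat number, where 0.0526% of all genes were, and 1 member, Map1lc3a, had an unadjusted p under 0.05 in limma's test. Tfeb, the member with the largest falls, had a slope of -0.55 per 100 repeats (limma adjusted p = 0.985). Each repeat number is that of 1 line, so repeat length and line cannot be told apart. A moderated F-test for any difference among the 4 line means called 4 members (12.5%), against 10.3% of all genes. The count was 0 without Q111 replicate 1 or 2, 1 without Q20 replicate 1, Q50 replicate 3 or Q91 replicate 3, and 2 without Q20 replicate 2, Q50 replicate 1 or Q91 replicate 2.

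These 4 were Becn1, Gabarap, Pik3c3 and Gabarapl1. The line means of Becn1 were 12.24 in Q20, 11.53 in Q50, 11.64 in Q91 and 12.09 in Q111 (limma F-test adjusted p = 0.0397), and those of Gabarap were 11.45, 10.87, 11.19 and 11.55 (adjusted p = 0.0272). Both are on chromosome 11, and after chromosome centring their adjusted p was 0.674. Centred, the F-test called 1 member, against 7.63% of all genes. Pik3c3, the lipid kinase of nucleation, averaged 9.26, 9.59, 9.53 and 9.22 (adjusted p = 0.0463). Gabarapl1, an ATG8 gene on chromosome 6, averaged 8.86, 8.36, 9.29 and 9.27 (adjusted p = 0.0459), with Q50 replicate 3 at 7.51 and the other Q50 arrays at 8.75 and 8.80. Without Q50 replicate 3 the limma adjusted p was 0.14 for Gabarapl1, 0.0921 for Pik3c3 and 0.0826 for Becn1, and without Q50 replicate 1 it was 0.102 for Gabarap. With the replicate number as a block it was 0.069 for Becn1, 0.0825 for Pik3c3 and 0.0917 for Gabarapl1, none called, and 0.0461 for Gabarap. On Q50 replicate 3 the 3′ control probe set of Actb exceeded the 5′ one by 1.54 in log2, against 0.75 to 1.03 on the other 23 arrays; its part in these values was not tested.

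Other genes of the pathway were counted from lists by function. Of all tested genes 7.55% rose and 8.81% fell in the knock-out, and 16.3% and 10.4% in Q20. The shares were 5.08% and 2.42% in Q50, 13.3% and 11.3% in Q91, and 16.4% and 11.1% in Q111. After chromosome centring they were 6.94% and 7.39%, 13.7% and 10.9%, 4.55% and 3.88%, 13.4% and 11.6%, and 14.4% and 11.9% in that order. Of 27 further autophagy genes tested, 1 rose and 2 fell in the knock-out, 6 and 2 in Q20, 0 and 1 in Q50, 2 and 4 in Q91, and 5 and 2 in Q111. Centred on chromosome medians the counts were, in the same order, 1 and 2, 5 and 2, 0 and 1, 2 and 5, and 6 and 0. Vamp8, which encodes a SNARE of autophagosome–lysosome fusion, rose by 0.70 in the knock-out, 1.05 in Q20, 1.20 in Q91 and 1.02 in Q111. Among those that fell, Atg4c changed by -0.87 in Q91 (limma adjusted p = 0.00855) and Tecpr1 by -0.64 in the knock-out (limma adjusted p = 0.0364). Of 35 further lysosomal genes, 9 rose and 2 fell in the knock-out, 5 and 1 in Q20, 4 and 0 in Q50, 4 and 3 in Q91, and 7 and 1 in Q111. With chromosome centring these became 7 and 1, 5 and 1, 4 and 0, 4 and 2, and 6 and 1. Before centring, 11.1%, 29.6%, 3.7%, 22.2% and 25.9% of the further autophagy genes were called in these comparisons. Of the further lysosomal genes 31.4%, 17.1%, 11.4%, 20% and 22.9% were, against 16.4%, 26.7%, 7.5%, 24.6% and 27.4% of all tested genes. The differences from these shares were not tested. Ctsc, the cathepsin C gene, averaged 8.86 ± 0.26 in Q20, 8.33 ± 1.24 in Q50, 9.16 ± 0.38 in Q91 and 9.49 ± 0.13 in Q111 (SD, n = 3 each). Controls averaged 6.69 ± 0.21 (SD, n = 6). The Q50 arrays thus differed widely. Ctsc rose by 2.17, 1.64, 2.47 and 2.80 (limma adjusted p = 6.43e-05, 0.00306, 1.22e-05 and 3.37e-06). Manba, a further lysosomal gene that fell, changed by -1.05 in Q20 and -1.74 in Q91 (limma adjusted p = 0.00927 and 0.000168).

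In the knock-out the further lysosomal genes that rose included Scarb2, the receptor that carries glucocerebrosidase to lysosomes, by 1.36, Ctsa (cathepsin A) by 0.61 and Tpp1 (a lysosomal peptidase) by 0.49. Of 15 genes of the proton pump that acidifies lysosomes, 2 rose and 0 fell in the knock-out, 3 and 1 in Q20, 2 and 0 in Q50, 3 and 2 in Q91, and 2 and 1 in Q111. Atp6v1h, on chromosome 1, changed by -1.09 in Q20 and -0.79 in Q111, and by -0.66 and -0.57 after chromosome centring. Atp6v0e rose by 0.67 and 0.45 in the same 2 lines. Of 36 genes of mTORC1 and AMPK signalling, which control ULK1 and TFEB, 4 rose and 3 fell in the knock-out, 5 and 3 in Q20, 0 and 0 in Q50 (6 at an unadjusted p under 0.05), 4 and 1 in Q91, and 5 and 3 in Q111. In limma's test 16.4%, 26.7%, 7.5%, 24.6% and 27.4% of all genes were called in these comparisons. After chromosome centring 3 pump genes were higher and 0 lower in the knock-out. In the lines these counts were 3 and 1, 1 and 0, 3 and 1, and 1 and 1. Of the mTORC1 and AMPK genes, 5 and 1 were then called in the knock-out and 2 and 5 in Q20. Their counts were 0 and 0 in Q50, 4 and 1 in Q91, and 3 and 3 in Q111.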

How the data were processed

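The authors deposited log2 expression values, and the submitters' processing notes name GCRMA. That the scale is log2 follows from the range of -0.18 to 17.19. Depth does not apply to arrays, and their number limits the precision. Of 45037 probe sets that are not array controls, 17980 reached a log2 signal of 5 on 3 or more arrays and were tested. limma 3.58.1 in R 4.3.3 fitted all 24 arrays together with a mean per group, and moderated two-sided tests were adjusted by Benjamini-Hochberg over all tested probe sets (threshold 0.05). The slope on the repeat number of the longer allele used the 12 knock-in arrays. Alternatives, including the added centring of each array on its chromosome medians, are given in the closing section. Members were named by role, with every called member described and others by range; other pathway genes were counted from lists, and the 3 with the smallest p of each list and comparison were eligible to be named. The members and lists were chosen with earlier results of these data known. Chromosomes and promoters came from RefSeq tables of GRCm38.p6. The scripts were tested on simulated data.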

Additional observations from a re-analysis of the deposited data

Results flagged for a closer look

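In 64 groups of 6 arrays (32 members in knock-out and control), 4 arrays stood apart from the rest of their group by Dixon's criterion, which chance meets in about 1 of 20 groups. Control replicate 4 was the lowest control for 3 genes: Atg14 at 7.83 (other controls 8.65 to 9.05), Tfe3 at 8.35 (8.76 to 8.89) and Ctsb at 9.84 (10.31 to 10.50). That array also had the lowest control median on every chromosome compared. It was -0.24 on chromosome 14, which holds Atg14 and Ctsb, and -0.15 on the X chromosome, which holds Tfe3. The part of this shift in the 3 values was not tested. Control replicate 3 was the highest for Atg4b at 9.06 (8.72 to 8.85). The 4 lines differed in their response by limma's moderated F-test for Becn1, with line means spanning 0.71 (adjusted p = 0.0397), Pik3c3, spanning 0.37 (adjusted p = 0.0463), Gabarap, spanning 0.68 (adjusted p = 0.0272), and Gabarapl1, spanning 0.93 (adjusted p = 0.0459). With the replicate block only the Gabarap difference was still called (adjusted p = 0.0461). Of the 4, Gabarapl1 was still called after chromosome centring (adjusted p = 0.0442).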

How the results depend on the processing

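The alternatives changed the filter, normalization, variance model, probe set per gene, groups in the fit and controls, used the replicate block, and left out each array in turn; centring on chromosome medians was added after seeing the data. The number of members called, 3 in the knock-out, was 5 with the mean of all probe sets of a gene, 5 with only the compared groups, 9 with replicates 1 to 3 alone and 1 with replicates 4 to 6 alone. With control replicates 4 to 6 alone it was 4 for Q20 (10), 1 for Q50 (2), 3 for Q91 (8) and 4 for Q111 (13). For Q50 it was 1 without a filter, with a filter at log2 6, with only the compared groups and with the replicate block. Chromosome centring gave 5 for Q91, 8 for Q111 and 1 for the F-test among lines (4), which gave 2 without a filter and 2 with the replicate block. Leaving out 1 array gave counts of 3 to 3 (knock-out), 6 to 10 (Q20), 0 to 4 (Q50), 6 to 9 (Q91), 6 to 14 (Q111), 0 to 0 for the slope, 0 to 5 for the F-test and 10 to 14 for the knock-out against the lines. Of 48 called member changes, chromosome centring kept 27, and it turned the sign of 6: Gabarap in Q20 to -0.050, Atg4b in Q20 to 0.066, Lamp1 in Q91 to 0.049, Nbr1 in Q111 to -0.041, and, for the knock-out against the lines, Lamp1 to -0.018 and Nbr1 to 0.048. No other setting turned a sign. Control replicates 4 to 6 alone kept 12 of the 33 in the lines, the replicate block and only the compared groups 39 of 48 each, no filter 41, and quantile normalization 45. Same-numbered knock-out and control arrays deviated in opposite directions (r between -0.41 and -0.26 across genes), and lines and control had r between -0.10 and 0.13. Among lines, all 3 same-numbered pairs of Q20 with Q111 (0.39 to 0.46) and of Q50 with Q91 (0.20 to 0.41) had positive r, and those of the other line pairs lay between -0.28 and 0.38. Since neither all lines nor any line and control deviated together, the numbers were not taken to pair arrays; the block ended 3 of the 4 F-test calls. The causes of these shifts were not tested. Members near a log2 value of 5, such as Atg9a, are limited by the background.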
